A study of Mus musculus with 12 samples.

Results

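The loss of the wild-type Foxo1 allele was examined in murine Burkitt lymphoma cells that kept a mutant Foxo1 allele. The cells were BL#19, a murine Burkitt lymphoma (BL) line edited with CRISPR/Cas9. The 3 arrays of the genotype wt-/mt+, in which the wild-type allele was knocked out and the T24P allele stayed, were set against the 3 arrays of the genotype wt+/mt+, which held both alleles. These 6 arrays are 6 of 12 in the series. The other genotypes were wt-/mt-, with both alleles knocked out, and wt+/mt-, with the T24P allele knocked out and the wild-type allele kept. They serve here for the same allele loss without T24P, whose levels come from other arrays, although its test takes its spread from all 12. The labels call the cells Burkitt lymphoma, except for 1 field that speaks of germinal centre B cells. No clone, culture or passage is named in the labels, so the p-values cover variation from array to array only, be it technical or not, and a genotype may stand for 1 clone.

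Foxo1 encodes a forkhead transcription factor that drives genes of B cell development, lymphocyte homing and the dark zone programme of germinal centre B cells. PI3K activates AKT, AKT phosphorylates Foxo1 at several residues including threonine 24, and the phosphorylated protein is bound by 14-3-3 proteins and kept in the cytoplasm. Substitutions around this threonine are recurrent in human B cell lymphomas, and T24P replaces it with proline. By their labels, wt-/mt+ cells are left with the mutant form and wt+/mt+ cells have both. The protein was not measured.

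RNA levels are given as log2 values per probe set, normalised by the authors, so a difference of 1 is a doubling. Probe sets of 18194 genes were named through the platform annotation, and 11458 genes were kept because their brightest probe set lay above the array median on at least 3 of the 12 arrays. Array medians lay between 6.08 and 6.25, and 0 pairs of arrays were identical. Pairs of arrays within wt-/mt+ correlated at 0.9919 to 0.9936 across genes, pairs within wt+/mt+ at 0.9945 to 0.998, and pairs between these genotypes at 0.9897 to 0.9938. All 14 B cell markers on the array lay above the array median on all 6 arrays. Of the markers of T cells 4 of 12 did so, of NK cells 2 of 10, of myeloid cells 4 of 18, of stromal cells 3 of 15 and of erythroid cells 1 of 7. Of these markers, 0 were called as different between the genotypes (0.463% of all genes were called). The mean level of the T cell markers was 5.80 to 5.83 on the wt-/mt+ arrays and 5.74 to 5.83 on the wt+/mt+ arrays. The mean level of the B cell markers was 11.92 to 12.12 on the wt-/mt+ arrays and 12.13 to 12.22 on the wt+/mt+ arrays.

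Foxo1 RNA itself (chromosome 3) was 11.57, 11.16 and 11.64 in wt-/mt+ cells, against 11.56, 11.63 and 11.72 in wt+/mt+ cells. The groups overlapped, and array 2 of wt-/mt+ was the lowest of the 6. The change was -0.18 (SE 0.13, 95% interval -0.47 to 0.11, limma adjusted p = 0.545), so a drop by 1, which would be a halving of the RNA, lay outside the interval. The 2 other Foxo1 probe sets above the array median gave -0.19 and -0.14, and a dim one gave 0.20. The probe sets read both alleles together, and whether the edited allele still makes RNA cannot be told from them. Where T24P was absent, the same loss gave levels of 10.23, 9.39 and 10.34 in wt-/mt- cells, against 12.10, 11.92 and 11.59 in wt+/mt- cells. Foxo3, a family member with overlapping targets, differed by -0.02 (SE 0.08, adjusted p = 0.904). Foxo4, another member, differed by -0.26 (SE 0.09, adjusted p = 0.248), with 6.99, 6.76 and 6.96 in wt-/mt+ cells, against 7.08, 7.17 and 7.25 in wt+/mt+ cells.

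Few genes were called between wt-/mt+ and wt+/mt+ cells, and most genes differed by small amounts. Limma called 53 of 11458 genes at a Benjamini-Hochberg adjusted p under 0.05 (0.463% of the genes tested), 26 higher (0.227%) and 27 lower (0.236%) in wt-/mt+ cells. An unadjusted limma p under 0.05 was found for 1682 genes, so 53 is a count of calls and not of every gene that may differ. The largest fall was that of Sash3, a signalling adaptor of lymphocytes, and the largest rise was that of Pdlim3, an actin-associated LIM protein. Among called genes, 8 fell by at least 2-fold and 0 rose by as much, with a median change of -0.81 for falls and 0.55 for rises. Over all genes the median 95% interval of a change reached 0.21 to either side, and 99.9% of genes differed by less than 2-fold. The arrays of the genotypes did not overlap for any of the 53 called genes, as they did not for 1701 genes higher (14.8%) and 761 genes lower (6.64%) in wt-/mt+ cells among all genes tested.

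The number of called genes depended on how the spread was estimated and on single arrays. It was 0 with 1 spread shared by all 12 arrays, where 412 genes had an unadjusted p under 0.05, and 19 with 1 weight for each genotype, of which 17 were among the 53. Without wt+/mt+ array 1, 2 or 3 it was 26, 3 or 2, and without wt-/mt+ array 1, 2 or 3 it was 16, 28 or 27. The split also moved with the scaling, to 12 higher and 32 lower after quantile normalization and 9 higher and 35 lower with each chromosome centred, since 61.6% of all genes lay higher in wt-/mt+ cells (median change 0.04) in the deposited values. The plot of all genes tested shows the longer arm of falls.

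**Figure D1:**
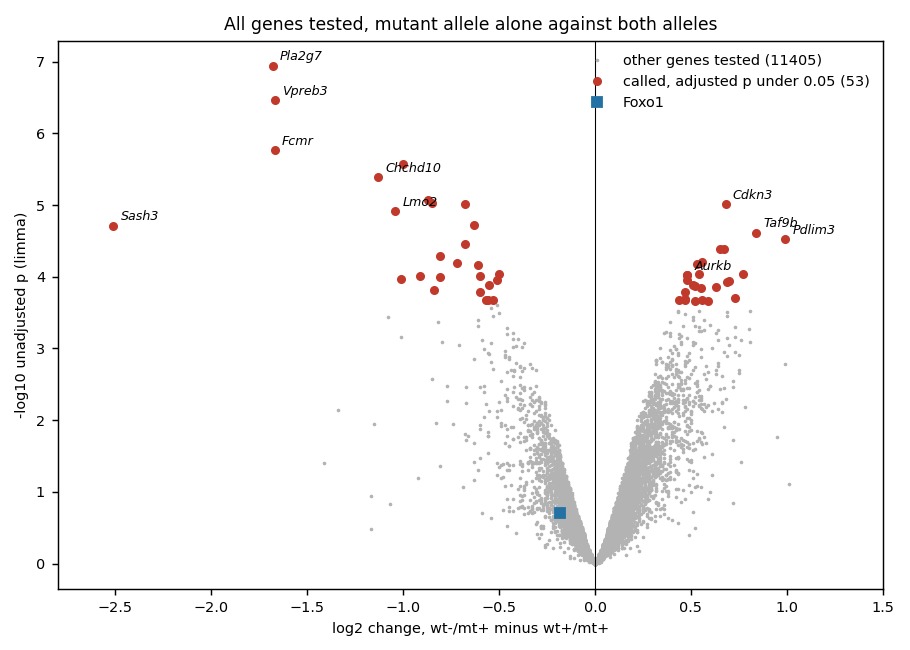
Each point is 1 of 11458 genes, with the log2 change (wt-/mt+ minus wt+/mt+) on the x axis and -log10 of the unadjusted limma p on the y axis, called genes in red and Foxo1 as a blue square. The 53 called genes reach -2.51 (Sash3) on the left and 0.99 (Pdlim3) on the right, and Foxo1 lies at -0.18.

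The 4 largest falls were those of Sash3, Pla2g7, Vpreb3 and Fcmr. Sash3 (chromosome X), an adaptor that acts downstream of antigen receptors, was 6.70, 7.82 and 6.55 in wt-/mt+ cells, against 9.47, 9.70 and 9.42 in wt+/mt+ cells. Array 2 of wt-/mt+ stood above the other arrays of its genotype, but still below every wt+/mt+ array. The change was -2.51, a 5.68-fold fall (SE 0.29, adjusted p = 0.0186), and it was called in 3 of 6 fits that each left out 1 array. The nearest kept neighbours of Sash3 on the chromosome did not share its size of change: Apln before it differed by -0.07 and Zdhhc9 after it by -0.09. Xpnpep2, between Apln and Sash3, differed by 0.15 at mean levels below the array medians.

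Pla2g7 (chromosome 17) encodes a secreted phospholipase that degrades platelet-activating factor. It was 4.96, 5.24 and 5.23 in wt-/mt+ cells, against 6.71, 6.81 and 6.93 in wt+/mt+ cells, so the genotypes lay far apart relative to their spread. It fell 3.2-fold (-1.68, SE 0.10, adjusted p = 0.00131). The level in wt-/mt+ lay below the array medians.

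Vpreb3 (chromosome 10) encodes a protein related to the surrogate light chain of precursor B cells. It was 6.36, 6.10 and 6.51 in wt-/mt+ cells, against 7.86, 8.10 and 8.03 in wt+/mt+ cells. No array of either genotype came near the other, and the gene fell by 1.67 on the log2 scale (SE 0.12, adjusted p = 0.00198). Pla2g7 and Vpreb3 were called in all 6 fits that left out 1 array and in 15 of 17 alternatives, the exceptions being the spread shared by all 12 arrays and the ordinary linear model.

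Fcmr (chromosome 1), the Fc receptor for IgM on B cells, was 6.60, 6.56 and 6.18 in wt-/mt+ cells, against 7.90, 8.33 and 8.12 in wt+/mt+ cells. It fell by 1.67 (SE 0.14, adjusted p = 0.00656), while its neighbours Pigr and Il24 differed by 0.02 and 0.08 at levels below the array median. In wt+/mt- cells, which kept the wild-type allele, Fcmr was 9.10, 6.88 and 6.62, and in wt-/mt- cells 10.02, 7.69 and 8.28. Chchd10 (chromosome 10), a protein of the mitochondrial intermembrane space, was 11.60, 11.63 and 11.95 in wt-/mt+ cells, against 12.92, 12.87 and 12.77 in wt+/mt+ cells, and fell by 1.13 (SE 0.11, adjusted p = 0.00935). Its other bright probe set gave -1.22. Among the falls, Chchd10 had the highest level in wt+/mt+ cells, so its fall concerned an abundant RNA on this array.

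Lmo2, a LIM-only cofactor of transcription and a marker of germinal centre B cells, was 9.97, 10.27 and 10.15 in wt-/mt+ cells, against 11.37, 11.08 and 11.07 in wt+/mt+ cells. It fell by 1.04 (SE 0.11, adjusted p = 0.014). Among the 18 kept germinal centre identity genes it was the 1 called, where 0.463% of all genes were called. The others of that list ranged from -1.41 (Gcsam, not called) to 0.43 (Mybl1, not called), and Bcl6, the master repressor of the germinal centre programme, differed by 0.10 (adjusted p = 0.651).

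The falls completing the 10 largest were those of Clec2i, Snhg16, Eno2 and Sh3bp1. Clec2i, a C-type lectin, was 5.12, 4.86 and 4.87 in wt-/mt+ cells, against 5.62, 6.12 and 6.14 in wt+/mt+ cells (-1.01, SE 0.15, adjusted p = 0.0386). All 6 levels lay below the array medians, and the gene passed the filter through wt-/mt- cells. Snhg16, a host gene of small nucleolar RNAs, was 9.47, 9.61 and 9.34 in wt-/mt+ cells, against 10.44, 10.45 and 10.55 in wt+/mt+ cells (-1.0, SE 0.09, adjusted p = 0.00767), but its other bright probe set gave -0.09. Eno2, the enolase best known from neurons, was 5.85, 6.02 and 5.51 in wt-/mt+ cells, against 6.64, 6.63 and 6.83 in wt+/mt+ cells (-0.91, SE 0.13, adjusted p = 0.0381). It was the 1 called gene of 26 kept glycolysis and hypoxia genes (0.463% of all genes were called), whose median change was 0.06. Sh3bp1, a GTPase-activating protein for Rac, was 6.65, 6.50 and 6.62 in wt-/mt+ cells, against 7.38, 7.40 and 7.62 in wt+/mt+ cells (-0.87, SE 0.09, adjusted p = 0.0124).

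The remaining 17 falls lay between -0.85 and -0.50. They included Lsp1, an actin-binding protein of lymphocytes (-0.68), Inpp5f, a phosphoinositide phosphatase (-0.68), and Eif2ak4, the amino acid sensing kinase GCN2 (-0.61). Spry2, a feedback inhibitor of receptor tyrosine kinase signalling (-0.60), and Nuak2, an AMPK-related kinase (-0.51), were also among them. The others were Tnnt3, Rgcc, Adam19, Col27a1, Slc30a4, Spats2, Rnase6, Prpf3, Igf2, Aldh2, Zfp783 and Elfn1.

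**Figure D2:**
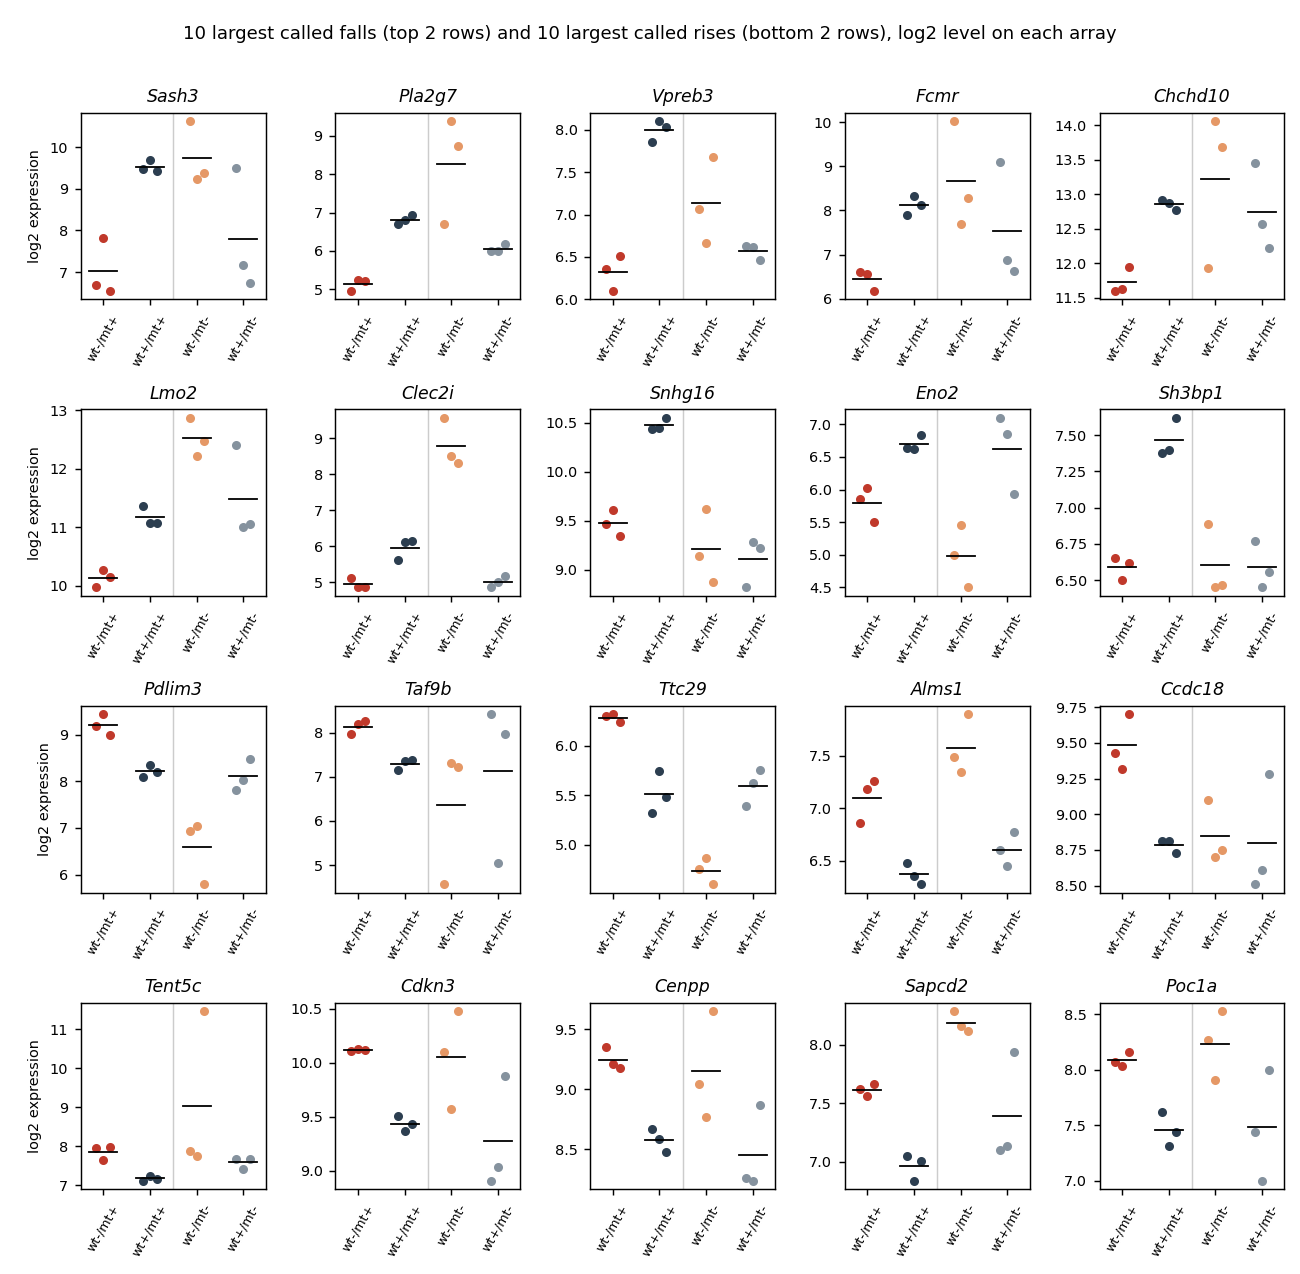
Log2 level (y axis) on each of 12 arrays for the 10 largest called falls and the 10 largest called rises, with 3 points and their mean as a line for wt-/mt+, wt+/mt+, wt-/mt- and wt+/mt-. In each panel the wt-/mt+ points do not overlap the wt+/mt+ points, and several genes spread more widely in both genotypes without T24P, such as Sash3 at 6.74 to 9.50 in wt+/mt- cells.

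Among the 53 called genes, 2 pairs were next neighbours in the RefSeq gene order: Chchd10 with Vpreb3 on chromosome 10 and Lsp1 with Tnnt3 on chromosome 7. The changes of Chchd10 and Vpreb3 were -1.13 and -1.67, while Smarcb1 and Mmp11 before them differed by -0.03 and 0.03 and Zfp280b after them by -0.01. Mmp11 lay below the array medians, at 4.89 in wt-/mt+ cells and 4.85 in wt+/mt+ cells. Around Lsp1 and Tnnt3, the gene before them, Tnni2, a troponin subunit of fast muscle, differed by -0.46 (adjusted p = 0.0766) and was 6.54, 6.52 and 6.47 in wt-/mt+ cells, against 6.86, 7.10 and 6.96 in wt+/mt+ cells. Mrpl23, the next gene after them, differed by -0.13, and Igf2 beyond it fell by 0.56. This stretch was looked at after the values were seen.

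The promoter windows of both neighbours on chromosome 10, and of the gene with the largest fall, are shown because all 3 held the octamer ATTTGCAT or its reverse complement ATGCAAAT, the element bound by the POU factors Oct-1 and Oct-2 at B cell promoters. The windows run from 250 bases before to 50 bases after each start and come from RefSeq on GRCm38.p6, and the capitals mark the octamer.
Sash3, chrX:48146186-48146485, plus strand: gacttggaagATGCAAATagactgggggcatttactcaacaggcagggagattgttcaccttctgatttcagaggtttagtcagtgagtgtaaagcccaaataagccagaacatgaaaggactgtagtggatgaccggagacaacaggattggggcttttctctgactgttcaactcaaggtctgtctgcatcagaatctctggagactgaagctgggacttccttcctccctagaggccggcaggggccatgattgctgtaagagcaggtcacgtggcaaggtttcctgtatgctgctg
Chchd10, chr10:75932880-75933179, plus strand: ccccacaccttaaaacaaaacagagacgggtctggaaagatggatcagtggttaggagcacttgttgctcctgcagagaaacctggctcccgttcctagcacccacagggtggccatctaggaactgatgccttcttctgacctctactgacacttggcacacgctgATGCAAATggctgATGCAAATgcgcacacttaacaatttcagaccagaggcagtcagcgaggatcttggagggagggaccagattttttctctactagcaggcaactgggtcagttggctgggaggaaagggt
Vpreb3, chr10:75948050-75948349, plus strand: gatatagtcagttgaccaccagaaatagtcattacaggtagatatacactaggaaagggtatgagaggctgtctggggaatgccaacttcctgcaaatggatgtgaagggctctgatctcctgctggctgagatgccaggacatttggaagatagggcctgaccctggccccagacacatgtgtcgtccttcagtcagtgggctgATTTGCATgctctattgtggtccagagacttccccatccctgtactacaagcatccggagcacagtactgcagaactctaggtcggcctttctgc
The first base of a match lay at -240 in Sash3, at -83 and -70 in Chchd10 and at -45 in Vpreb3, counted from the start. Of the 27 falls, 21 had a window and 3 of these (14.3%) held the octamer on either strand, against 0 of 21 rises with a window and 128 of 9289 kept genes with a window (1.38%). The letters were chosen after the windows had been seen, and a match is a description of the sequence. The FOXO core GTAAACA, or TGTTTAC on the other strand, was in 1 of these 21 falls (Adam19, 4.76%), in 0 of the 21 rises and in 225 of the 9289 kept genes (2.42%). No fall held both motifs, and sites outside the windows were not searched.

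The 26 rises lay between 0.44 and 0.99. Pdlim3 was 9.19, 9.43 and 8.98 in wt-/mt+ cells, against 8.10, 8.35 and 8.19 in wt+/mt+ cells, and rose 1.99-fold (0.99, SE 0.12, adjusted p = 0.0246). Taf9b, a paralogue of a TFIID subunit, was 7.97, 8.19 and 8.25 in wt-/mt+ cells, against 7.16, 7.36 and 7.37 in wt+/mt+ cells (0.84, SE 0.10, adjusted p = 0.0215). Ttc29, known from the sperm flagellum, was 6.30, 6.32 and 6.24 in wt-/mt+ cells, against 5.32, 5.75 and 5.48 in wt+/mt+ cells (0.77, SE 0.11, adjusted p = 0.0381). These 3 genes did not overlap between the genotypes, but Ttc29 passed the filter only through wt-/mt+, where it lay just above the array median, so the filter bears on its call. With no filter its adjusted p was 0.0451, and it was called in 0 of 6 fits that left out 1 array.

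Cdkn3, a phosphatase that acts on cyclin-dependent kinases, had the tightest arrays among the larger rises, with 10.11, 10.13 and 10.12 in wt-/mt+ cells, against 9.51, 9.37 and 9.43 in wt+/mt+ cells (0.68, SE 0.07, adjusted p = 0.0124). Cenpp, a subunit of the inner kinetochore, was 9.35, 9.21 and 9.18 in wt-/mt+ cells, against 8.67, 8.59 and 8.48 in wt+/mt+ cells (0.67, SE 0.09, adjusted p = 0.0274). Cenpl, another subunit of that complex, rose by 0.53 (adjusted p = 0.0362). Aurkb, the kinase of the chromosomal passenger complex, was 10.11, 10.13 and 10.16 in wt-/mt+ cells, against 9.62, 9.63 and 9.70 in wt+/mt+ cells (0.48, SE 0.07, adjusted p = 0.0381). It was called in 0 of 6 fits that left out 1 array, with an adjusted p of 0.063 to 0.23, and in 6 of 17 alternatives. Gpsm2 and Sapcd2, both known for spindle orientation, rose by 0.56 and 0.65, and Knstrn, a protein of kinetochores and the spindle, rose by 0.55, although its 4 bright probe sets ranged from -0.01 to 0.55.

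Alms1 and Poc1a, proteins of the centrosome or centriole, rose by 0.73 and 0.63, and Kif24, a kinesin of the mother centriole, rose by 0.47. Invs and Ttc30a1, proteins of the cilium, rose by 0.48 and 0.44, with the reservation that Ttc30a1 has near-identical copies. Tent5c, a poly(A) polymerase, rose by 0.69, with 7.96, 7.66 and 7.98 in wt-/mt+ cells, against 7.12, 7.25 and 7.17 in wt+/mt+ cells. Hvcn1, the voltage-gated proton channel of B cells, rose by 0.54, with 11.19, 11.05 and 11.02 in wt-/mt+ cells, against 10.55, 10.53 and 10.56 in wt+/mt+ cells. The others were Ccdc18 (0.70), Magi3, Fam171b, Kcnq5, Rps6ka5, Svil, Galnt12, Aipl1 and Pdk3. Of 13 called genes with more than 1 probe set above the array median, 11 had all of them on the same side of 0, the exceptions being Kcnq5 and Knstrn.

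Genes of G2 and M phase lay higher as a list. All 29 kept members were higher in wt-/mt+ cells (61.6% of all genes), with a median change of 0.55 against 0.04 over all genes. Of these, 28 had an unadjusted p under 0.05 (10.6% of all genes did so in this direction), 22 did not overlap between the genotypes (14.8% of all genes in this direction), and Aurkb alone was called (0.227% of all genes in this direction). The count of 28 was 12 with the spread shared by 12 arrays, 17 with 9 arrays and 19 with an ordinary linear model. Cenpf, a kinetochore protein of late G2, was 10.63, 10.54 and 10.74 in wt-/mt+ cells, against 10.22, 9.72 and 9.55 in wt+/mt+ cells (0.81, adjusted p = 0.0876). Ccnb2, a mitotic cyclin, was 11.17, 11.04 and 11.39 in wt-/mt+ cells, against 10.75, 10.43 and 10.50 in wt+/mt+ cells (0.64, adjusted p = 0.0788). Cdk1, its kinase, differed by 0.58 (adjusted p = 0.117), Plk1, a mitotic kinase, by 0.49 (adjusted p = 0.167), and Foxm1, a forkhead activator of these genes, by 0.29 (adjusted p = 0.324).

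The arrays of each genotype differed in this list. Relative to the mean of wt+/mt+, its median was 0.48, 0.30 and 0.74 on the wt-/mt+ arrays and 0.21, -0.07 and -0.15 on the wt+/mt+ arrays. Array 1 of wt+/mt+ was the highest of its genotype and array 2 of wt-/mt+ the lowest, so that the genotypes came within 0.1 of each other at these arrays. Leaving out array 1 of wt+/mt+, a choice made after seeing the data, gave a median of 0.66, and each of the other 5 left out gave 0.43 to 0.64. On the wt-/mt- arrays the median was 0.97, 0.60 and 1.02, and on the wt+/mt- arrays -0.23, -0.37 and 0.54. Cell numbers in each phase were not measured, and in bulk RNA more cells in a phase and more RNA per cell cannot be told apart.

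**Figure D3:**
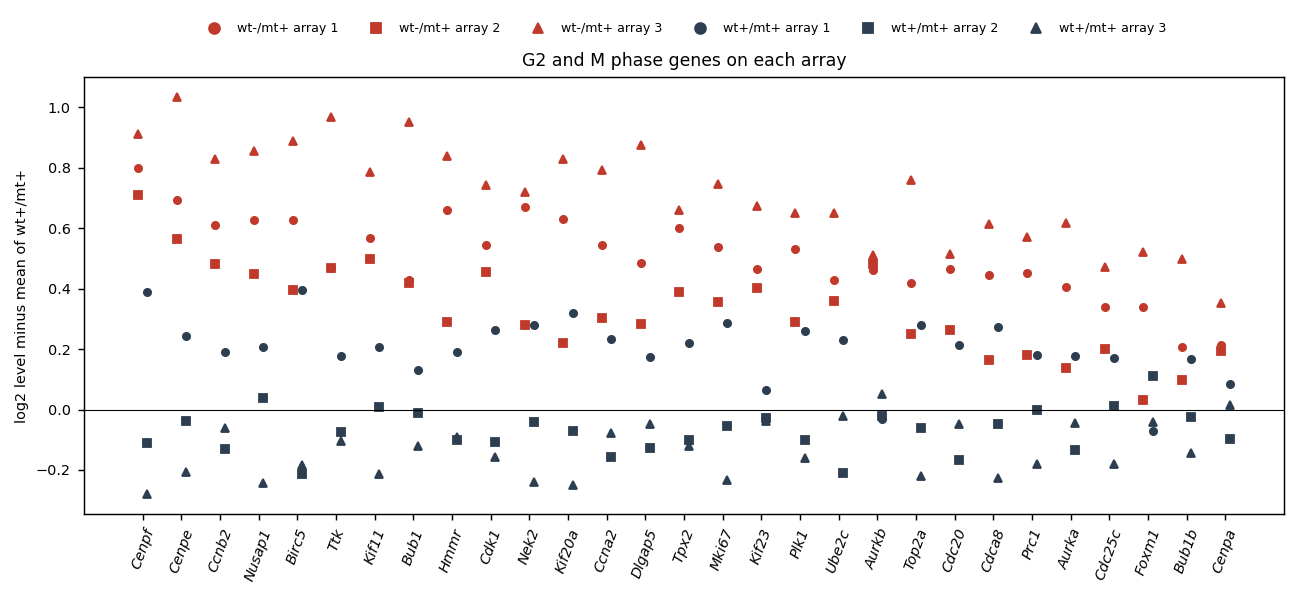
Log2 level minus the mean of wt+/mt+ (y axis) for the 29 kept G2 and M phase genes (x axis, ordered by change), with 1 symbol for each array, wt-/mt+ in red and wt+/mt+ in dark blue. Array 3 of wt-/mt+ is highest for all 29 genes, and array 1 of wt+/mt+ is the highest of its genotype for 27 of them.

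Promoters of many of these genes carry the cell cycle genes homology region, TTTGAA or TTCAAA on the other strand, an element through which the DREAM complex and B-Myb act. It was in 17 of 22 G2 and M phase genes with a window (77.3%), in 6 of 21 called rises (28.6%), in 3 of 21 called falls (14.3%) and in 1092 of 9289 kept genes (11.8%). The stretches below show it, in capitals, in the 3 called rises with mitotic roles that hold it, then in the 5 members of the list with the largest change among those that hold it, each with 20 bases on either side on the strand of the gene (GRCm38.p6, RefSeq).
Cdkn3, chr14:46760410-46760455, plus strand: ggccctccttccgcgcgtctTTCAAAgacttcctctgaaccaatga
Cenpl, chr1:161070585-161070630, plus strand: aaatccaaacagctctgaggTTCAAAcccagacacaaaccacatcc
Gpsm2, chr3:108722307-108722352, minus strand: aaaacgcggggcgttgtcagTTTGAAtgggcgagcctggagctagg
Cenpf, chr1:189688059-189688104, minus strand: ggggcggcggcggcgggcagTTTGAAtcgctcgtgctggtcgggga
Ccnb2, chr9:70421525-70421570, minus strand: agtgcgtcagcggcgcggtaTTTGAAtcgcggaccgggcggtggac
Ttk, chr9:83834676-83834721, plus strand: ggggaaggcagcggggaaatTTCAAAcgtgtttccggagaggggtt
Kif11, chr19:37376343-37376388, plus strand: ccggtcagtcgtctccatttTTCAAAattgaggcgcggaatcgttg
Hmmr, chr11:40733404-40733449, minus strand: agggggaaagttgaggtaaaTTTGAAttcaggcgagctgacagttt
In the list, 16 of the 17 genes held a match within 60 bases of the start, and matches began between -179 and 41. In the called rises the first base lay at -111 in Cdkn3, at -162 in Cenpl and at -33 in Gpsm2. Ccnb2 held a second match at -167. The list is one whose promoters are known for this element, so its share describes the list and not the change.

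S phase genes also lay mostly higher. Of 29 kept members, 28 were higher in wt-/mt+ cells (61.6% of all genes). An unadjusted p under 0.05 was found for 20 of them (10.6% of all genes in this direction). Of the members, 0 were called (0.463% of all genes), and the median change was 0.39. The count of 20 was 7 without wt+/mt+ array 2, 6 without wt+/mt+ array 3, 8 without wt-/mt+ array 1, 6 without wt-/mt+ array 3 and 2 with the spread shared by 12 arrays. The genotypes did not overlap for 8 members (14.8% of all genes in this direction). The medians of the list were 0.40, 0.15 and 0.62 on the wt-/mt+ arrays and 0.24, -0.06 and -0.18 on the wt+/mt+ arrays, and wt+/mt+ array 1 lay above wt-/mt+ array 2. Without 1 array the median was 0.27 to 0.52, lowest without wt+/mt+ array 3 and highest without wt+/mt+ array 1 or wt-/mt+ array 2. Pcna, the sliding clamp of replication, was 13.42, 13.29 and 13.77 in wt-/mt+ cells, against 13.24, 12.80 and 12.74 in wt+/mt+ cells (0.57, adjusted p = 0.179), and Mcm7, a subunit of the replicative helicase, differed by 0.23 (adjusted p = 0.579).

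Target genes of FOXO factors were spread around 0. Of 43 kept canonical targets, 22 were higher and 21 lower in wt-/mt+ cells (61.6% and 38.4% of all genes). At a background of 0.463% of all genes, the 0 called among them says nothing particular about these targets. Their median was 0.01 (-0.05 to 0.03 over the alternatives). An unadjusted p under 0.05 was found for 3 higher and 5 lower members, against 10.6% and 4.08% of all genes in these directions. The lowest was Cdkn1b, which encodes the cell cycle inhibitor p27, with 8.98, 8.68 and 8.61 in wt-/mt+ cells, against 9.02, 9.70 and 9.87 in wt+/mt+ cells (-0.77, 95% interval -1.24 to -0.30, adjusted p = 0.167). Array 1 of wt+/mt+ lay with the wt-/mt+ arrays for this gene, and without it the change was -1.03 and was called (adjusted p = 0.0322). That array was picked after seeing the data, so the larger change follows from the choice. Cdkn1b was called in 1 of 6 fits that left out 1 array (adjusted p up to 0.442) and in 1 of 17 alternatives. Ccnd2, which encodes a D-type cyclin, differed by -0.67 (adjusted p = 0.167), and the highest member was Gadd45a, a stress gene (0.34, adjusted p = 0.167).

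Targets known from lymphocytes had a median of -0.11 over 16 kept genes (-0.19 to 0.02 over the alternatives), with 10 lower (38.4% of all genes were lower). The 0 called among them, at 0.463% of all genes, again says nothing particular. S1pr1, the receptor that guides egress from lymphoid tissue, was 7.84, 7.59 and 7.50 in wt-/mt+ cells, against 8.12, 8.32 and 8.33 in wt+/mt+ cells. Its groups did not overlap, and the change of -0.61 (SE 0.11, adjusted p = 0.0665) was called in 4 of 17 alternatives, among them 3 other scalings. Ccr7, a homing receptor, differed by -0.68 (adjusted p = 0.233) and Klf2, a transcription factor upstream of S1pr1, by -0.56 (adjusted p = 0.282). Cxcr4, the dark zone receptor, differed by -0.26 (95% interval -0.62 to 0.11) and Bach2, a repressor of plasma cell fate, by 0.11 (95% interval -0.11 to 0.33).

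Genes of B cell receptor signalling were lower in 18 of 24 cases (38.4% of all genes were lower), with a median of -0.09. At a background of 0.463% of all genes, the 0 called among them says nothing particular about this list. Syk, the kinase recruited to the receptor, was 8.65, 9.04 and 9.48 in wt-/mt+ cells, against 10.10, 10.23 and 9.88 in wt+/mt+ cells. The groups did not overlap, but the wt-/mt+ arrays spread widely, and the change of -1.01 had an adjusted p of 0.0837. The next lowest were Blnk and Siglecg, both at -0.28. The chain Cd79a and the kinase Btk differed by -0.19 and -0.01, so 1 gene stood apart from the rest of the list.

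Other lists moved by less than 0.2 at the median, apart from germinal centre dark zone genes (0.31 over 16 kept genes), of which Ccnb2, Mki67, Plk1, Top2a, Cdc20 and Aurka are also G2 and M phase genes. The counts of direction below stand beside 61.6% of all genes higher and 38.4% lower in wt-/mt+ cells. Cholesterol synthesis had 21 of 23 kept genes higher (median 0.19), led by Fdps (0.42) and Fdft1 (0.39), enzymes of the farnesyl and squalene steps. DNA repair and hypermutation genes were higher in 24 of 29 cases (median 0.18), led by Rad54l (0.65) and Exo1 (0.61). Some members of that list differed little, such as Ung (-0.09), Polh (0.10) and Msh6 (-0.03). Genes of antigen presentation were lower in 14 of 21 cases (median -0.13), with Ciita and Cd74, the class II transactivator and the invariant chain, both at -0.51. The other 7 were higher, with Psmb9 and Cd1d1 at 0.35 and Nlrc5 and B2m at 0.27. In that list an unadjusted p under 0.05 was found for 3 higher and 4 lower members (10.6% and 4.08% of all genes). Immediate early and heat shock genes were lower in 21 of 30 cases (median -0.11), and lysosome and autophagy genes in 29 of 39 (median -0.07). No member of these lists was called (0.463% of all genes). The early B cell list had Vpreb3 as its 1 called gene of 5 kept (0.463% of all genes were called). Igll1, a surrogate light chain component, differed by 0.15.

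**Figure D4:**
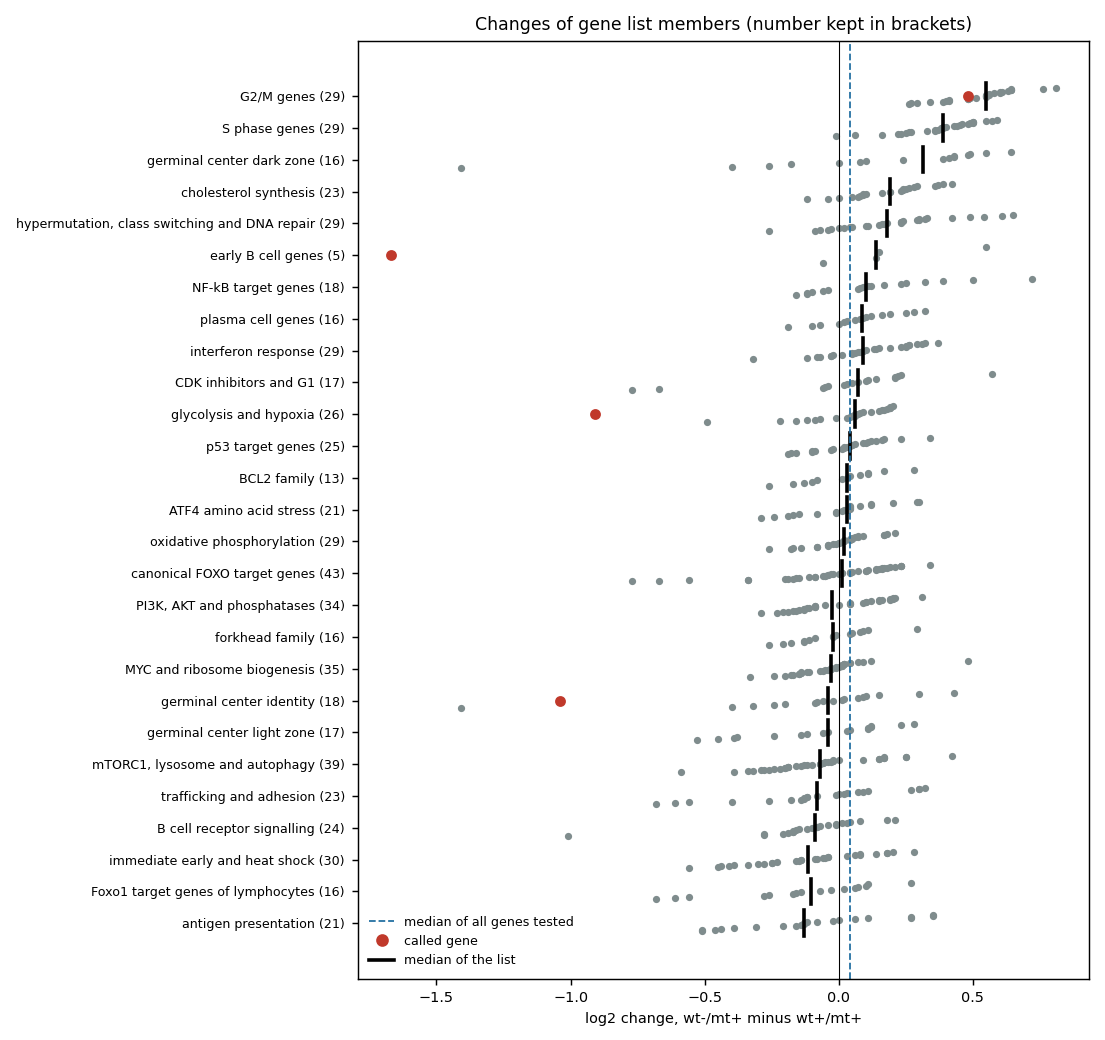
Log2 change (wt-/mt+ minus wt+/mt+, x axis) of the kept members of 27 gene lists (y axis), with each gene as a point, called genes in red, the median of each list as a black bar and the median of all genes as a dashed line. The medians of the G2/M list (0.55) and the S phase list (0.39) lie farthest to the right, and the 4 called members are Aurkb, Vpreb3, Lmo2 and Eno2.

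The same loss was compared between cells that hold T24P and cells that do not. Without T24P, 1670 of the same 11458 genes were called (wt-/mt- against wt+/mt-, fit over 12 arrays), where the same fit called 0 with T24P present. The changes in the 2 backgrounds correlated at 0.0779 across genes, which share their arrays within each background and are not independent replicates. The difference between the 2 changes, the interaction of the allele losses, was called for 360 genes (3.14%), 96 with the higher and 264 with the lower change in cells without T24P. The median SD over genes was 0.261 for wt-/mt-, the most spread genotype, 0.133 for wt+/mt-, 0.111 for wt-/mt+, and 0.0952 for wt+/mt+.

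Of 12 genes that were lower after the loss without T24P, 0 were called with it. At a background of 0.463% of all genes, this 0 says nothing particular about them. They are 8 taken from earlier known results of these data and 4 more with the largest negative interactions, not the 12 largest changes, so their size is given as a description. The interaction contains the wt-/mt+ and wt+/mt+ arrays, so a choice by it favours genes that do not fall there. The first 8 differed by -0.34 to 0.11 with T24P. Pik3ip1, an inhibitor of PI3K, was 10.52, 10.54 and 10.28 in wt-/mt+ cells, against 10.55, 10.67 and 10.61 in wt+/mt+ cells (-0.16, 95% interval -0.37 to 0.05). Without T24P it was 7.24, 7.82 and 6.69 in wt-/mt- cells, against 10.11, 10.24 and 10.31 in wt+/mt- cells (-2.97). Bach2 differed by 0.11 with T24P and by -3.82 without it, Cxcr4 by -0.26 and -3.12, and Ehf, an ETS factor, by 0.08 and -4.65. Irs2, an adaptor of insulin signalling, differed by -0.34 and -2.00, and Bmf, a pro-apoptotic BH3-only protein, by -0.26 and -2.67. Trp53inp1, a p53-induced gene, differed by 0.05 and -2.23. Sesn1, a sestrin, differed by -0.03 and -1.28. Of the 4 others, Zfyve28 differed by 0.06 with T24P and -4.83 without it, Dnaic2 by 0.14 and -4.41, and Lct by 0.30 and -3.88. Cdyl2 was lower in both, at -1.17 with T24P (95% interval -2.68 to 0.35) and -5.11 without it, and its wt-/mt+ arrays spread widely.

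Some called genes of the loss beside T24P moved the other way in cells without it, and others moved the same way. Of the 27 falls, 20 had a higher mean in wt-/mt- than in wt+/mt-, and of the 26 rises, 10 had a lower mean there. The same shares over all genes were not counted, so these counts are a description only. Clec2i, among the 20, passed the filter only through wt-/mt-, where it is high. The interaction was called for 17 of the 53 genes, 11 falls and 6 rises, but it contains the arrays that chose these genes, so its count among them is not independent of the choice. Pla2g7, which fell beside T24P, was 6.69, 9.38 and 8.74 in wt-/mt- cells, against 6.00, 6.00 and 6.17 in wt+/mt- cells (2.21). Hvcn1, which rose beside T24P, was 8.92, 8.60 and 8.28 in wt-/mt- cells, against 10.68, 10.97 and 11.06 in wt+/mt- cells (-2.30). Lsp1 was 13.13, 12.20 and 12.97 in wt-/mt- cells, against 11.86, 11.51 and 11.63 in wt+/mt- cells (1.10). Other called genes moved the same way in both backgrounds. Among the falls, Eno2 differed by -0.91 with T24P and -1.64 without it, and Spry2 by -0.60 and -1.63. Among the rises, Alms1 differed by 0.73 and 0.96, and Aurkb by 0.48 and 1.14.

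For Vpreb3, Snhg16 and Sh3bp1, wt+/mt+ stood above the other 3 genotypes. Vpreb3 was 7.06, 6.67 and 7.68 in wt-/mt- cells and 6.63, 6.62 and 6.47 in wt+/mt- cells, all below the 3 wt+/mt+ arrays. Snhg16 was 9.14, 9.62 and 8.88 in wt-/mt- cells and 8.82, 9.28 and 9.22 in wt+/mt- cells. Sh3bp1 was 6.89, 6.45 and 6.47 in wt-/mt- cells and 6.77, 6.45 and 6.56 in wt+/mt- cells. These levels are given side by side and without a test, since each genotype is set against the same wt+/mt+ arrays.

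**Figure D5:**
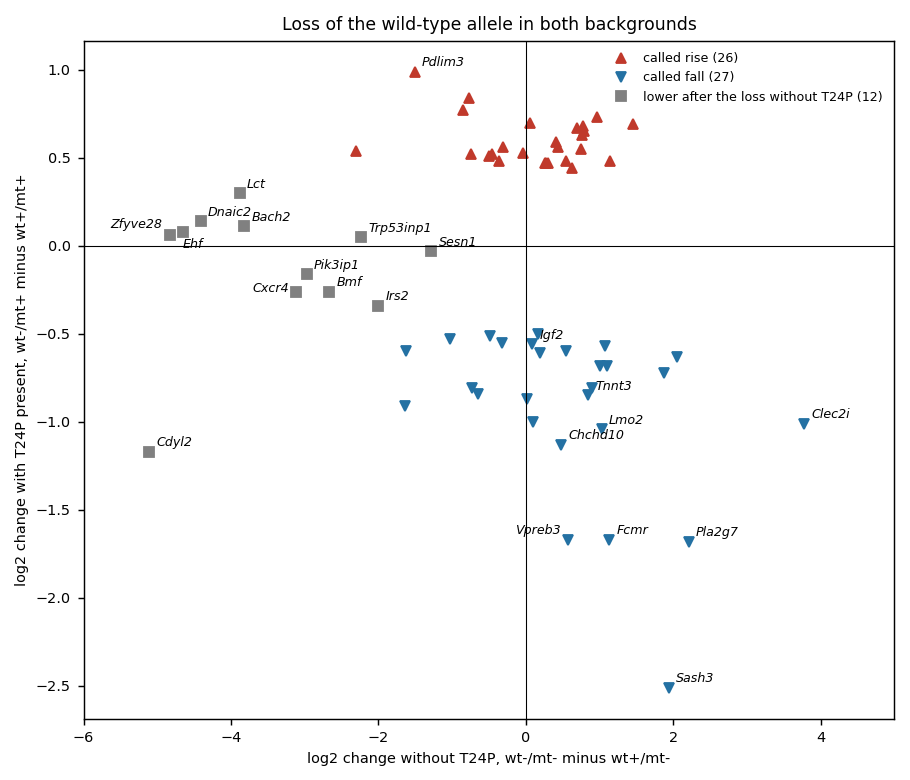
Log2 change after the allele loss with T24P (y axis, wt-/mt+ minus wt+/mt+) against the change without it (x axis, wt-/mt- minus wt+/mt-) for 26 called rises, 27 called falls and 12 genes lower after the loss without T24P. Pla2g7, Sash3 and Clec2i lie low on the y axis and to the right of 0 on the x axis, and Ehf and Bach2 lie far to the left at 0.08 and 0.11 on the y axis, while Cdyl2, farthest left, lies at -1.17.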

How the data were processed

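RNA of 12 samples, 3 for each of 4 genotypes, was measured on Affymetrix mouse arrays after Qiagen purification and labelling with a 3' IVT kit, per the labels' protocols. Expression was deposited as log2 values, 1 per probe set, which the authors computed with RMA according to the submitters' processing notes (version not given in the sources used here). Background correction and normalization across arrays are part of RMA and remove most shifts shared by all genes. The log base is inferred from what RMA usually writes and from the range, 3.09 to 15.57. Of 45101 probe sets, 34958 had 1 gene in the platform annotation, 932 several and 9211 none named there, and 162 symbols were kept as the annotation lists them.

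Each gene was read from its probe set with the highest mean. The 6 arrays of wt-/mt+ and wt+/mt+ were fitted with limma 3.58.1 in R 4.3.3 (lmFit, eBayes), with calls at an adjusted p (Benjamini-Hochberg, 11458 genes) below 0.05. Loss without T24P and the interaction were fitted over all 12 arrays. Errors are limma's SE, and SD over 3 arrays for levels. The number of arrays limits the precision. Named genes were the Foxo family, the 10 largest non-overlapping called rises and falls, called members of each list or otherwise up to 2 members by size, and the 5 largest interactions in each direction. The other called genes, and members whose role is described, were named beyond that rule. Members and lists were chosen with earlier results of these data known. Alternatives covered the arrays in the fit, filter, scaling, probe sets, eBayes options and single arrays left out. Controls for 3' bias differed by -0.09 (actin, exact permutation p = 0.3) and -0.03 (Gapdh, exact permutation p = 0.7) between the genotypes. With 3 against 3 arrays this permutation test cannot go below 0.1, so it decides nothing at 0.05. The fits were tested on simulated data, but the outcome is not given here and lends the calls no support. Promoter windows were available for part of the genes and came from RefSeq (GRCm38.p6). Windows on chromosome 18, which holds 266 kept genes and the called rise Svil, were not used in the motif shares.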

Additional observations from a re-analysis of the deposited data

Results flagged for a closer look

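For 18 named genes, the change after the allele loss without T24P differed from the change with it, by limma's interaction term over 12 arrays at an adjusted p under 0.05. The values below are the change without T24P minus the change with it, on the log2 scale. Among called falls of the T24P background, the difference was 4.79 for Clec2i, 4.45 for Sash3, 3.89 for Pla2g7, 2.24 for Vpreb3, 2.07 for Lmo2, 1.10 for Snhg16 and 0.88 for Sh3bp1. Among called rises it was -2.50 for Pdlim3 and -1.62 for Ttc29. Foxo1 itself gave -1.71 and Bmf -2.41.

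The largest positive differences beyond these were those of Anxa10, an annexin, at 4.05 and Havcr1, the TIM-1 receptor, at 3.58. The largest negative ones were those of Zfyve28 at -4.89, Ehf at -4.73, Dnaic2 at -4.55, Lct at -4.18 and Cdyl2 at -3.95. For Cdyl2 the arrays of wt-/mt+ themselves spread widely, with 5.43, 4.80 and 7.76, against 6.55, 7.48 and 7.46 in wt+/mt+ cells. Clec2i, Vpreb3, Pdlim3, Ttc29, Havcr1, Zfyve28, Ehf and Lct kept an adjusted p under 0.05 in each of 17 alternatives, and the highest adjusted p of the other 10 lay between 0.0525 (Pla2g7) and 0.142 (Cdyl2). This is no independent support for Clec2i, Vpreb3, Pdlim3 and Ttc29, which were chosen on the wt-/mt+ and wt+/mt+ arrays that the interaction contains, nor for Havcr1, Zfyve28, Ehf and Lct, which were named for the size of their interaction. Clec2i passed the filter on low levels only through wt-/mt- and Ttc29 only through wt-/mt+, where each is high.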

How the results depend on the processing

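Counts of called genes moved most. Against 53, they were 0 with a spread shared by 12 arrays, 19 with 1 weight per genotype, 6 with 9 arrays, 89 with a trended and robust eBayes step and 0 with an ordinary linear model (chosen after seeing the data, 1412 genes at an unadjusted p under 0.05). Leaving out 1 array gave 2 to 28. The count of interaction calls was 360, and leaving out 1 array gave 118 to 994, the 3 highest of them (772, 930 and 994) without a wt-/mt- array. The cause was not tested, although a left-out array leaves fewer samples. Other filters, scalings and probe set rules gave 37 to 53 calls, and 0 results changed direction past the threshold. Splits into higher and lower calls were 13 and 33 with arrays centred on their median and 23 and 28 with the mean of probe sets, which shared 33 genes with the 53. For Foxo1 the change stayed between -0.29 and -0.03 and was called in 0 of 17 alternatives. Intervals of 0.21 to either side at the median limit what 3 arrays a genotype can show. No paired analysis was run, because the labels name no link between arrays of different genotypes. The array numbers run on from 1 to 12 and do not show whether any arrays shared a culture or batch.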

Other observations

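Some genes differed more between arrays of 1 genotype than between genotypes. In wt-/mt+, 17 kept genes spanned more than 2 log2 units over the 3 arrays, against 0 such genes in wt+/mt+. There were 380 among the wt-/mt- arrays and 27 among the wt+/mt- arrays. Tbx20, a T-box transcription factor, was 5.50, 10.83 and 6.55 in wt-/mt+ cells, against 8.55, 8.82 and 9.01 in wt+/mt+ cells. Rhoh, a GTPase of haematopoietic cells, was 5.39, 8.04 and 4.99 in wt-/mt+ cells, against 7.20, 7.17 and 7.25 in wt+/mt+ cells. In both, wt-/mt+ array 2 lay above and the other arrays below every wt+/mt+ array, so the genotype means hide values on both sides.

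H2-Oa, a chain of the MHC class II chaperone H2-O, was 7.86, 9.11 and 6.23 in wt-/mt+ cells, against 7.81, 7.91 and 7.88 in wt+/mt+ cells. Gcsam, a germinal centre signalling protein, was 6.65, 4.41 and 4.07 in wt-/mt+ cells, against 6.06, 6.67 and 6.65 in wt+/mt+ cells, and here array 1 lay with wt+/mt+. Akap6 was 8.56, 6.12 and 6.30 in wt-/mt+ cells, against 6.50, 6.49 and 6.51 in wt+/mt+ cells. Whether the arrays of wt-/mt+ came from separate clones is not given in the labels.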
